A study of Mus musculus with 20 samples.

Results

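The genes described here encode the chains of the collagens that form the fibrils of hyaline cartilage. They are Col2a1 for collagen II, Col9a1, Col9a2 and Col9a3 for collagen IX, Col11a1 and Col11a2 for collagen XI, and Col27a1 for collagen XXVII. They were chosen by name, and all 7 were found, once each, among the 54532 genes of the expression table. Articular chondrocytes from mice aged 6 weeks were kept for 48 hours under 1 of 4 conditions. Vehicle cells received DMSO alone. The sterols 25HC and 25HC3S (25-hydroxycholesterol and its 3-sulfate) were both given at 20 µM, and GW3965 was given at 2 µM. Each of the 4 groups holds 5 libraries, 20 in all. The sources used here do not name a strain or a sex, nor say whether replicates are separate animals or cultures. The spread that the p-values measure may therefore be technical.

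25HC is an oxidised cholesterol, 25HC3S is its sulfate ester, and GW3965 is a synthetic compound that activates liver X receptors (LXR), nuclear receptors for oxysterols. Collagen II, a homotrimer of the Col2a1 product, is the bulk of the cartilage fibril. Collagen XI lies inside that fibril and limits its width, and it is built from the products of Col11a1, Col11a2 and Col2a1. Collagen IX, a heterotrimer of its 3 gene products, sits on the fibril surface and links it to the surrounding matrix. Collagen XXVII is a fibrillar collagen of cartilage that matters where growth cartilage calcifies. The transcription factor SOX9 drives many of these genes in chondrocytes, and chondrocytes that lose their identity in culture are known to lose Col2a1 while Col1a1 rises.

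Values are FPKM, fragments scaled to gene length and to a library size, so levels can be compared between genes as well as between libraries. The sources used here do not say how that size was set. In Vehicle replicates 2, 3 and 4, 25HC3S replicate 1 and GW3965 replicates 1 and 2 that size was below the fragments in genes. It was therefore not a plain library total. The table allowed whole fragments to be worked out for 100% of values, and the libraries held 14653777 to 19365220 fragments in genes. In 4 libraries, Vehicle replicates 2, 3 and 4 and 25HC3S replicate 1, between 237 and 1171 genes were at exactly 1 fragment, against 1808 to 2057 in the other 16. These 4 stand apart for the collagens too, as described next. Results of the 7 genes are given with all 20 libraries and without these 4, when Vehicle rests on replicates 1 and 5 alone. Results of other genes are with all 20 libraries unless said otherwise. Markers of chondrocytes were present: Acan, the main cartilage proteoglycan, lay between 57.8 and 86.3 FPKM, Sox9 between 18.1 and 26.7 FPKM, and all 10 chondrocyte markers passed the filter on low values. Abca1, an LXR target that exports cholesterol, was at 111 FPKM ± 2.10 with GW3965 and 11.2 ± 2.66 in Vehicle (SD, n = 5 each). With 25HC it was at 5.96 ± 0.482 and with 25HC3S at 9.55 ± 2.04, log2 differences of -0.79 and -0.21 from Vehicle. Without the 4 libraries these differences were -0.46 and 0.01. The one with 25HC had an adjusted p under 0.05 by limma in both settings (0.024 and 0.019). The one with 25HC3S had it in neither (0.40 and 0.94). In bulk RNA, fewer cells of a type and less RNA per cell cannot be told apart.

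Of the 4 libraries, 3 were low for 6 of the 7 collagens and 1 was high for all 7. In Vehicle replicate 3, Col9a3 was 4.67 FPKM, against a mean of 22.4 FPKM in Vehicle replicates 1 and 5. In Vehicle replicate 4, Col9a2 was 0.351 FPKM against 5.45. In the same library Col11a2 was 25.1 FPKM against 68.0. Vehicle replicates 3 and 4 and 25HC3S replicate 1 were low for every collagen except Col11a1. That gene was 169, 178 and 176 FPKM in the 3 libraries, against means of 170 FPKM in the other Vehicle and 163 FPKM in the other 25HC3S libraries. Vehicle replicate 2 went the other way, with all 7 above the mean of replicates 1 and 5, from 1.08-fold for Col9a2 to 1.69-fold for Col2a1. Not every value was far out among all tested genes. In Vehicle replicate 3, 27.0% of genes fell further than Col9a1 and 1.00% further than Col9a3. In 25HC3S replicate 1, 16.3% fell further than Col2a1 and 13.3% further than Col9a1. In Vehicle replicate 2, 62.1% of genes had a lower difference than Col9a2 and 98.0% a lower one than Col2a1. The summed FPKM of the 10 chondrocyte markers was 560 to 1357 in the 3 Vehicle libraries and 1268 to 1342 in replicates 1 and 5. The 14 macrophage markers summed to 435 to 698 FPKM and 863 to 1028 FPKM in the same libraries. Mitochondrial genes took 0.369% to 4.07% of fragments in the 4 libraries and 0.889% to 1.41% in the other 16. The part of these differences in the collagen values was not tested.

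**Figure D1:**
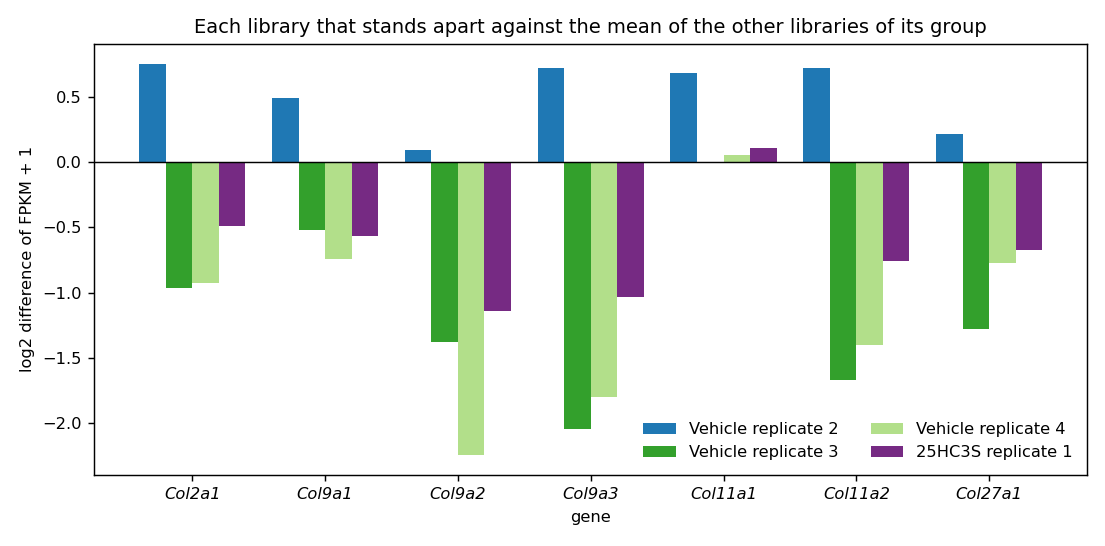
Difference of log2(FPKM + 1) of each collagen gene (x axis) between 1 library and the mean of the libraries of its group that do not stand apart (2 for Vehicle, 4 for 25HC3S). Bars for Vehicle replicates 3 and 4 and 25HC3S replicate 1 point down for every gene but Col11a1, and bars for Vehicle replicate 2 point up.

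Across the genes, levels differed widely. With 25HC, the group with the tightest values for most members, means were 2303 FPKM for Col2a1, 178 for Col11a1, 72.4 for Col11a2, 63.2 for Col9a1, 24.6 for Col9a3, 6.74 for Col9a2 and 5.98 for Col27a1. The ranges of Col9a2 and Col27a1, the 2 lowest, overlapped, and no other neighbours in that order did. The 3 chains of collagen IX thus had unequal RNA levels, although the protein takes 1 of each. The 7 genes together took 2.51% ± 0.150 of all fragments with 25HC, 3.05% ± 0.269 with GW3965, 2.19% ± 0.360 with 25HC3S and 2.13% ± 1.03 in Vehicle (SD, n = 5 each).

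**Figure D2:**
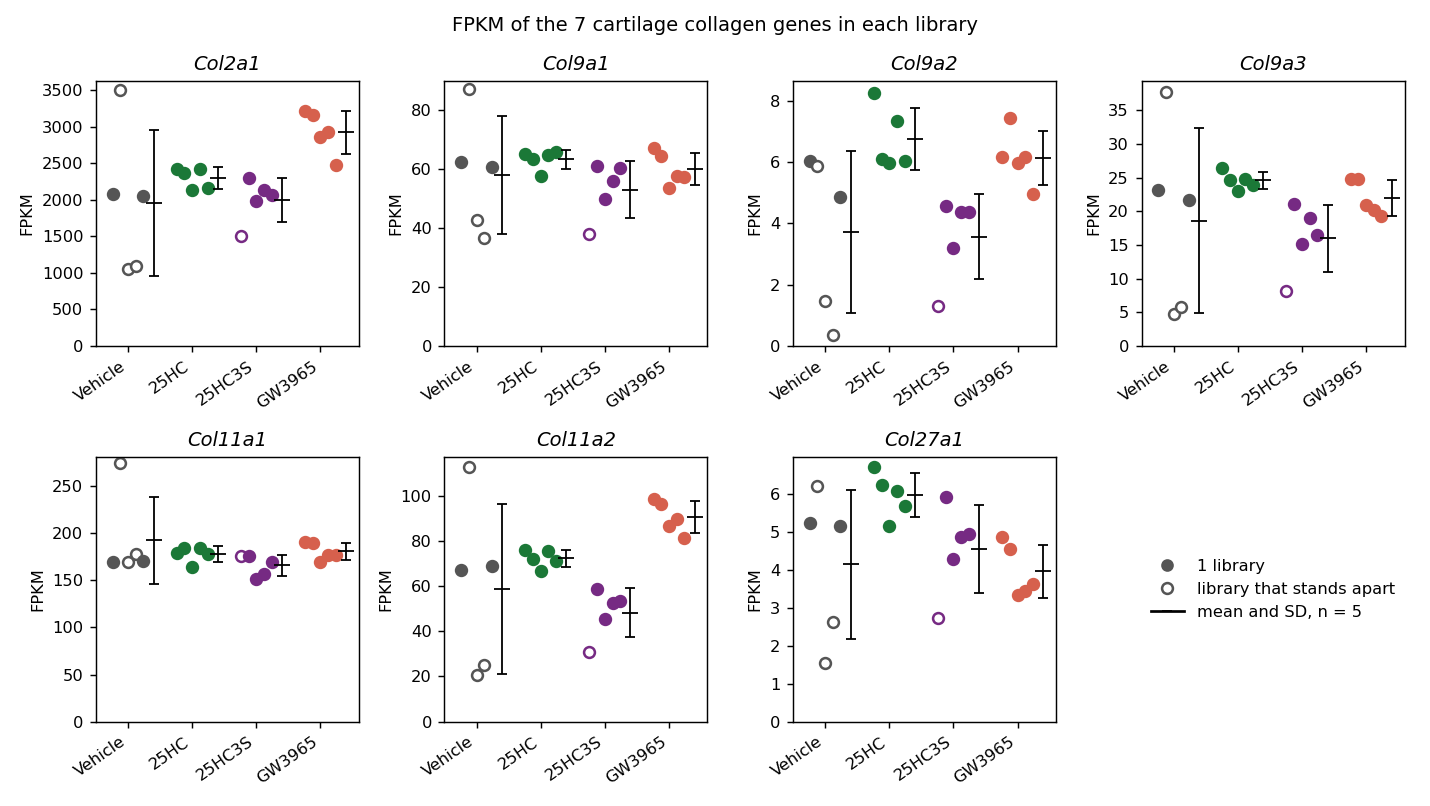
FPKM (y axis, from 0) of the 7 genes in each of 20 libraries by group (x axis), with the mean and SD of 5 libraries as bars. Open circles are the 4 libraries that stand apart. The GW3965 libraries lie above all 25HC and 25HC3S libraries for Col2a1 and Col11a2, and below all 25HC libraries for Col27a1.

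Collagen II was highest with GW3965. Col2a1 (ENSMUSG00000022483, minus strand of chr15:97975602-98004695) was 3223, 3159, 2857, 2927 and 2477 FPKM in GW3965 replicates 1 to 5. In 25HC it was 2430, 2371, 2129, 2426 and 2160 FPKM. In 25HC3S it was 1509, 2304, 1985, 2138 and 2069 FPKM. Every GW3965 library was above every library of both oxysterols. Vehicle gave 2085, 3501, 1059, 1090 and 2053 FPKM, and its range covered those of all other groups through replicates 2, 3 and 4. The 2 remaining Vehicle libraries were below the lowest 25HC and GW3965 library. Against Vehicle, the log2 difference of Col2a1 with GW3965 was 0.72 ± 0.23 (SE), and it did not pass the test (adjusted p = 0.065). When the 4 libraries were left out it was 0.49 ± 0.09 and passed (adjusted p = 0.0018), a mean of 2929 FPKM against 2069, or 1.42-fold. With 25HC the difference from Vehicle was 0.38 ± 0.23 and with 25HC3S 0.16 ± 0.23, and neither passed (adjusted p = 0.25 and 0.71) nor did so without the 4 libraries.

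Among the collagen IX chains, Col9a2 and Col9a3 separated the 2 oxysterols and Col9a1 did not. Col9a2 (ENSMUSG00000028626, plus strand of chr4:121039385-121055322) was 8.25, 6.12, 5.96, 7.34 and 6.04 FPKM in 25HC and 1.31, 4.58, 3.19, 4.39 and 4.37 FPKM in 25HC3S. All 25HC3S libraries were below all 25HC libraries. GW3965 gave 6.17, 7.44, 5.96, 6.15 and 4.96 FPKM, also above every 25HC3S library, and Vehicle gave 6.03, 5.87, 1.47, 0.351 and 4.86 FPKM. This gene rests on few fragments, 17 in Vehicle replicate 4 and up to 478 in 25HC replicate 1. Its log2 difference between 25HC3S and 25HC was -0.82 with a 95% interval from -1.57 to -0.07 and an adjusted p of 0.61, and with the 4 libraries left out -0.59, from -0.83 to -0.36 (adjusted p = 0.0038).

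Col9a3 (ENSMUSG00000027570, plus strand of chr2:180597790-180622189) followed Col9a2. It was 26.4, 24.7, 23.1, 24.8 and 23.98 FPKM in 25HC and 8.16, 21.2, 15.1, 18.9 and 16.5 FPKM in 25HC3S, again with no overlap. GW3965 gave 24.8, 24.8, 20.9, 20.1 and 19.3 FPKM and Vehicle 23.2, 37.7, 4.67, 5.71 and 21.7 FPKM, and both ranges overlapped that of 25HC3S. Between the oxysterols the log2 difference was -0.65 (95% interval from -1.47 to 0.17, adjusted p = 0.82), and without the 4 libraries -0.45 (from -0.63 to -0.26, adjusted p = 0.0055). Col9a3 overlaps Tcfl5 on the opposite strand, which reached 8.37 FPKM. Since the strand setting of the counting is not given in the sources used here, fragments of the 2 genes may not be fully separated. Col9a1 (ENSMUSG00000026147, plus strand of chr1:24177610-24252684) ran from 57.5 to 65.5 FPKM in 25HC, 37.9 to 61.0 in 25HC3S, 53.6 to 67.0 in GW3965 and 36.4 to 87.1 in Vehicle. Its groups overlapped in all 6 comparisons. The log2 difference of Col9a1 between 25HC3S and 25HC was -0.27 (95% interval from -0.63 to 0.10).

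The 2 chains of collagen XI parted. Col11a2 (ENSMUSG00000024330, plus strand of chr17:34039437-34066685) ordered the 3 treated groups without overlap, GW3965 above 25HC above 25HC3S. Col11a1 (ENSMUSG00000027966, plus strand of chr3:114030540-114220718) moved little. The 250 bases before their RefSeq start sites are shown because these chains of 1 trimer had unlike responses. Capitals mark matches, on either strand, to GGGCGG, the box bound by SP1, and to AGGTCA, the half-site of nuclear receptors such as LXR. The windows, from RefSeq on GRCm38.p6, are chr3:114030290-114030539 and chr17:34038888-34039137, both on the plus strand.
Col11a1: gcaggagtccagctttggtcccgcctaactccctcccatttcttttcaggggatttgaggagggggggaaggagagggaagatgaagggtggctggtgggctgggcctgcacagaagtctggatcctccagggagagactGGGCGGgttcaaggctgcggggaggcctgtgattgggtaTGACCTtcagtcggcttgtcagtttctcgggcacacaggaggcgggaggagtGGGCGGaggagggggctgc
Col11a2: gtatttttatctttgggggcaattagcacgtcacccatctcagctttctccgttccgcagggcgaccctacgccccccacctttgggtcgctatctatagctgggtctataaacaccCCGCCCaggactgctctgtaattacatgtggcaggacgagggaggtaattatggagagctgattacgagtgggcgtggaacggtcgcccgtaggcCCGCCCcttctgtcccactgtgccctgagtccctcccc

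Each window held 2 matches to GGGCGG, which 32.7% of all 32851 RefSeq promoter windows of this length hold at least once. AGGTCA, which 14% of windows hold, was matched once before Col11a1 and not before Col11a2. The SOX motifs ACAAAG and AACAAT and the sterol regulatory element TCACNCCAC had no match in either, against 16.5%, 9.42% and 1.05% of windows. No 2 matches overlapped. GC content was 62.4% before Col11a1 and 57.6% before Col11a2, with a median of 52.4% over all windows. A match is only a run of letters, and an absent one says nothing about the factor.

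In numbers, Col11a2 was 98.8, 96.5, 86.5, 89.8 and 81.3 FPKM in GW3965. In 25HC it was 76.1, 71.9, 66.9, 75.8 and 71.2 FPKM. In 25HC3S it was 30.6, 59.0, 45.7, 52.4 and 53.7 FPKM. The 3 treated groups did not overlap, and 25HC3S stayed below 25HC with or without replicate 1. Vehicle gave 67.1, 113, 20.6, 25.1 and 69.0 FPKM, and its replicates 1 and 5 lay within the 25HC range. The log2 difference from Vehicle was 0.88 ± 0.32 with GW3965 (adjusted p = 0.092), 0.56 ± 0.32 with 25HC and -0.05 ± 0.32 with 25HC3S, none of which passed. Leaving out the 4 libraries gave 0.40 ± 0.08 with GW3965 (adjusted p = 0.0063) and -0.37 ± 0.09 with 25HC3S (adjusted p = 0.026). Between 25HC3S and GW3965 it was then -0.77 ± 0.07 (adjusted p = 5.6e-07), the smallest adjusted p of the 7 genes without the 4 libraries.

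Col11a1 ran from 164 to 185 FPKM in 25HC, 151 to 176 in 25HC3S, 170 to 191 in GW3965 and 169 to 275 in Vehicle, where replicate 2 alone exceeded 178 FPKM. Its groups overlapped in every comparison, and its log2 differences lay between -0.19 and -0.02. With the 4 libraries left out it was lower with 25HC3S than with GW3965, a log2 difference of -0.15 ± 0.05 (adjusted p = 0.045), and no other comparison passed.

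Collagen XXVII had its own order. Col27a1 (ENSMUSG00000045672, plus strand of chr4:63214004-63334991) was 6.73, 6.23, 5.17, 6.07 and 5.70 FPKM in 25HC and 4.88, 4.55, 3.33, 3.46 and 3.62 FPKM in GW3965. All 25HC libraries were above all GW3965 libraries, the reverse of Col2a1 and Col11a2. It was 2.75, 5.92, 4.30, 4.87 and 4.95 FPKM in 25HC3S and 5.23, 6.21, 1.55, 2.62 and 5.16 FPKM in Vehicle, and these ranges overlapped both. The log2 difference between 25HC and GW3965 was 0.50 with a 95% interval from 0.03 to 0.97 (adjusted p = 0.59). With the spread estimated from those 2 groups alone, neither of which holds any of the 4 libraries, the interval was 0.29 to 0.70 (adjusted p = 0.0047). Mir455, a microRNA gene inside Col27a1 on the same strand, reached 0.625 FPKM.

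With all 20 libraries, none of the 7 genes passed limma's test at an adjusted p of 0.05 in any of the 6 comparisons. At an unadjusted p of 0.05, 2 did so for 25HC and 3 for GW3965 against Vehicle, none for 25HC3S against Vehicle, 1 for 25HC3S against 25HC, 1 for 25HC against GW3965 and 2 for 25HC3S against GW3965. Of all 12752 genes tested, 0.0392% were called for 25HC, 1.61% for 25HC3S and 6.46% for GW3965 against Vehicle. The shares were 0.816% for 25HC3S against 25HC, 1.74% for 25HC against GW3965 and 4.63% for 25HC3S against GW3965. The 3 comparisons with Vehicle share its 5 libraries. The median difference of the 7 genes was 0.54 with 25HC, 0.10 with 25HC3S and 0.59 with GW3965 against Vehicle, where medians over all genes were 0.03, 0.02 and 0.02. Without the 4 libraries the medians of the 7 were 0.13, -0.12 and 0.09, and over all genes 0.00, 0.01 and 0.01. Leaving out 1 Vehicle library changed the calls. Without Vehicle replicate 1, Col9a2 passed for 25HC, where 20.9% of all genes then did, and Col2a1, Col11a2 and Col9a2 for GW3965, where 25.5% did. Col2a1 and Col11a2 passed for GW3965 without Vehicle replicate 2 (8.31% of all genes) and without replicate 5 (23.5%). Leaving out a library outside the pair compared also moved calls, since the fit shares 1 estimate of spread. Col11a2 passed between 25HC3S and GW3965 without Vehicle replicate 2 (5.55% of all genes) or 3 (5.83%), and Col2a1 for GW3965 against Vehicle without 25HC3S replicate 1 (11.5%).

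Calls appeared in 5 of the 6 comparisons once the 4 libraries were left out. None of the 7 genes was called for 25HC against Vehicle, where 0.0235% of all genes were and none of the 7 had an unadjusted p under 0.05. Col11a2 was called lower for 25HC3S (1 of 7, against 3.95% of all genes), and Col2a1 and Col11a2 higher for GW3965 (2 of 7, against 7.77%). These shares for Vehicle rest on 2 Vehicle libraries, which are assumed to vary like the other groups. When only the 2 groups compared entered the fit, Col11a2 was no longer called for 25HC3S against Vehicle (adjusted p = 0.11).

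The comparison of 25HC3S with 25HC, at the same dose and time, sets an oxysterol beside its sulfate. All 7 collagen genes had a negative difference, with a median of -0.35 against 0.00 over all genes. Without the 4 libraries the median was -0.22 against 0.01. In 3 of the 7 the libraries of the groups did not overlap, Col9a2, Col9a3 and Col11a2, against 7.29% of all genes. Without the 4 libraries these same 3 were called lower in 25HC3S, against 7.18% of all genes. For Col11a2 the difference was then -0.45 (95% interval from -0.60 to -0.31, adjusted p = 0.00062). For the 4 genes that did not pass, intervals without the 4 libraries were -0.26 to 0.03 for Col2a1, -0.30 to -0.01 for Col9a1, -0.23 to -0.02 for Col11a1 and -0.42 to -0.01 for Col27a1. Only the interval of Col2a1 held 0. Without the 4 libraries, 6 of the 7 genes had an unadjusted p under 0.05 in limma, as had 2875 of all 12752 genes. The intervals leave room for decreases of the sizes given, so the 2 sterols are not shown to act alike on these 4 genes. Macrophage markers moved in the same comparison: of 13 tested, 1 was higher (Cd14) and 3 lower (Mrc1, Fcgr1 and Adgre1), with log2 differences of 0.70, -1.52, -0.89 and -0.67. Without the 4 libraries, where the collagens were called, 8 of 13 were lower and 1 higher, led by Mrc1 at -1.55, Fcgr1 at -0.89 and C1qc at -0.81. The 14 macrophage markers summed to 605 to 734 FPKM in the 4 other 25HC3S libraries and 713 to 1008 FPKM in 25HC. Their part in the collagen differences was not tested.

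Both oxysterols were compared with GW3965, which was given at a lower dose. For 25HC against GW3965, 3 of 7 genes did not overlap (Col2a1 and Col11a2 lower, Col27a1 higher), against 11.1% of all genes. The same 3 were called without the 4 libraries, where 13.1% of all genes were, and in a fit of these 2 groups alone, where 11.2% were. Neither group holds a library that stands apart. In the fit of the 2 groups, log2 differences were -0.34 ± 0.07 for Col2a1 (adjusted p = 0.0080) and -0.32 ± 0.05 for Col11a2 (adjusted p = 0.0031). For 25HC3S against GW3965, Col2a1, Col9a2 and Col11a2 did not overlap, all lower, against 12.2% of all genes. In the fit of the 2 groups alone Col2a1 and Col11a2 were called, against 7.91% of all genes, and without the 4 libraries Col2a1, Col9a2, Col9a3, Col11a1 and Col11a2 were, against 17.9%. No gene of the 7 was free of overlap against Vehicle, for 25HC (2.33% of all genes), 25HC3S (2.16%) or GW3965 (7.07%). For 25HC3S against GW3965, 5 of 13 macrophage markers were lower and 1 higher, led by Fcgr1 at -1.21, C1qc at -1.17 and C1qb at -1.03. When the 4 libraries were left out, 10 of 13 were lower and 1 higher. The 14 summed to 910 to 1054 FPKM with GW3965. The part of this in the collagen values was not tested.

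**Figure D3:**
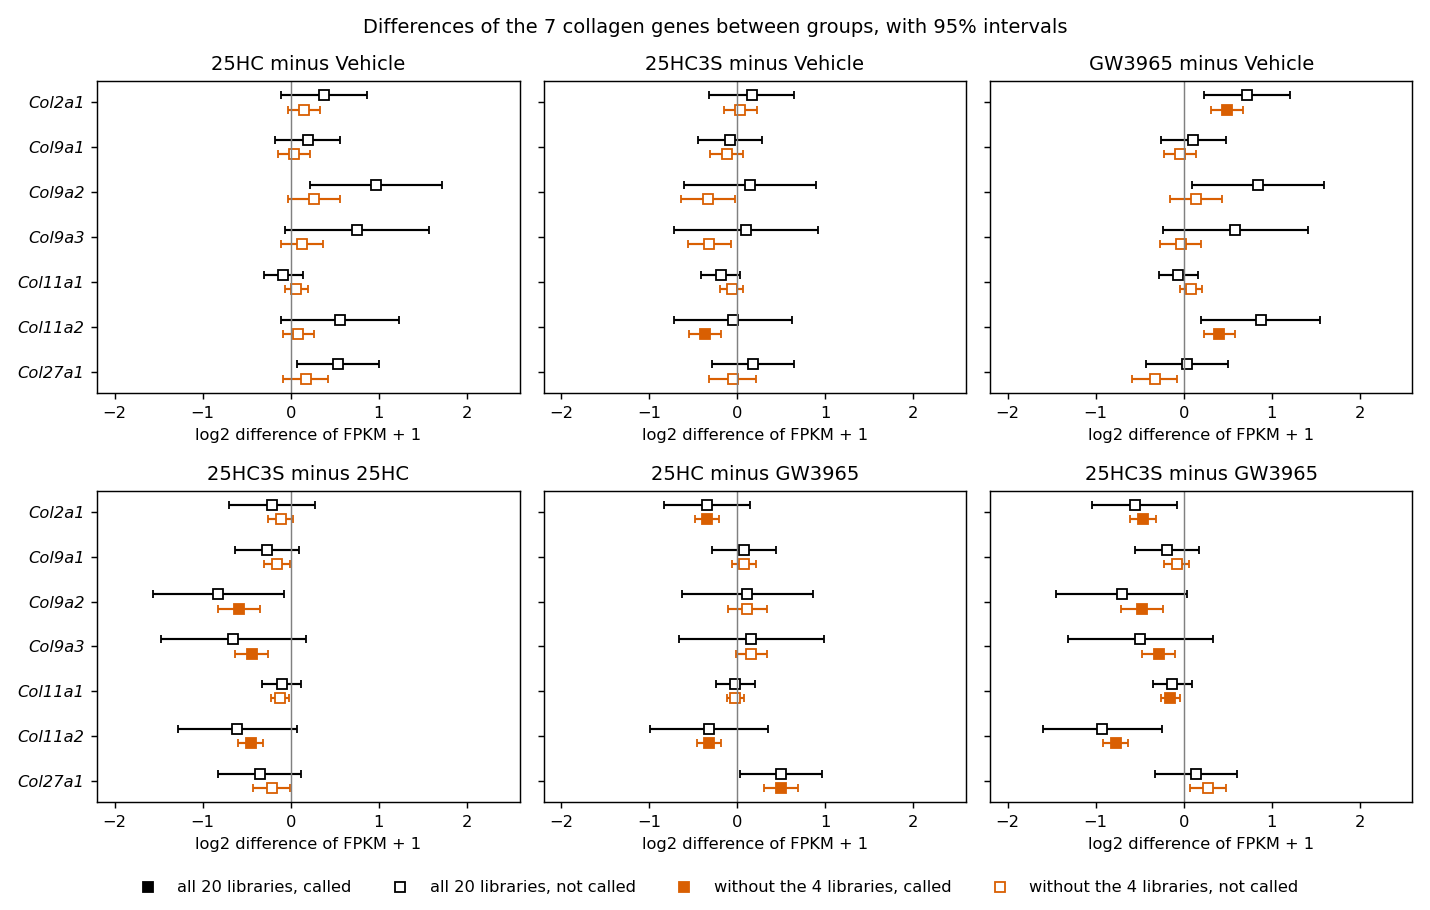
Log2 differences of FPKM + 1 (x axis) of the 7 genes (y axis) in the 6 comparisons, with 95% intervals, for all 20 libraries (black) and without the 4 that stand apart (orange). Filled squares passed an adjusted p of 0.05. No black square is filled, and Col11a2 is filled in orange in 5 of 6 panels.

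Ratios of 2 genes within a library do not depend on how that library was scaled, and they set the chains of 1 collagen against each other. Of 42 tests, 7 ratios in 6 comparisons, 21 had an adjusted p under 0.05 in the exact two-sided permutation test, whose smallest p over 252 regroupings of 5 against 5 was 0.00794. In 18 of the 42 the groups did not overlap. The ratios share genes and the comparisons share groups, so these tests are not independent. Ratios of other gene pairs were not tested. With the 4 libraries left out 14 passed. With 2 Vehicle libraries against 5 the exact permutation test cannot go below p = 0.0952, so no comparison with Vehicle could pass.

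The balance of collagen XI chains was the clearest of these. The ratio of Col11a2 to Col11a1 was 0.500 ± 0.0237 with GW3965, 0.406 ± 0.0129 with 25HC and 0.293 ± 0.0674 with 25HC3S (SD, n = 5 each), and no library of one group lay within another. Each of these 3 differences had p = 0.00794 in the exact permutation test (adjusted p = 0.0185), and without the 4 libraries each had an adjusted p of 0.0476 in the same exact permutation test. Vehicle replicates 1 and 5 had 0.395 and 0.404, within the 25HC range of 0.389 to 0.424, while Vehicle replicates 3 and 4 had 0.122 and 0.141. On the log2 scale the difference of 25HC3S from 25HC was -0.51, and -0.34 without its replicate 1.

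In collagen IX, Col9a2 relative to Col9a1 was 0.107 ± 0.0140 with 25HC, 0.103 ± 0.0126 with GW3965 and 0.0650 ± 0.0179 with 25HC3S (SD, n = 5 each). The 25HC3S libraries lay below all libraries of both other groups, and both differences passed the exact permutation test (adjusted p = 0.0185). Col9a3 relative to Col9a1 was 0.390 ± 0.0161 with 25HC and 0.296 ± 0.0540 with 25HC3S, again without overlap (adjusted p = 0.0185). Col9a2 to Col9a1 was also higher with 25HC and with GW3965 than in Vehicle (adjusted p = 0.048 each by the exact permutation test), with log2 differences of 1.25 and 1.196. These 2 passed only with all libraries or without Vehicle replicate 1. They were 0.70 and 0.64 without Vehicle replicate 4 (adjusted p = 0.087 each by the exact permutation test) and 0.27 and 0.21 without all 4 libraries.

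Relative to Col2a1, the chains Col9a1, Col11a1 and Col27a1 were lower with GW3965 than with either oxysterol. Col9a1 to Col2a1 was 0.0205 ± 0.00166 with GW3965, 0.0275 ± 0.00161 with 25HC and 0.0264 ± 0.00168 with 25HC3S (SD, n = 5 each). Col11a1 to Col2a1 was 0.0622 ± 0.00532 with GW3965, against 0.0774 ± 0.00310 with 25HC and 0.0848 ± 0.0179 with 25HC3S. Without 25HC3S replicate 1 the last was 0.0770 ± 0.00352 (n = 4). Col27a1 to Col2a1 was 0.00135 ± 0.000167, against 0.00259 ± 0.000132 and 0.00224 ± 0.000281. All 6 differences from the oxysterols were without overlap and passed the exact permutation test (adjusted p = 0.0185). The 3 ratios share Col2a1, itself higher with GW3965, so they are not separate results. Col9a1 alone was 59.9 FPKM with GW3965, 63.2 with 25HC and 53.0 with 25HC3S. Col11a1 alone was 181, 178 and 166 FPKM in the same order. Against Vehicle all 3 ratios were lower with GW3965 (adjusted p = 0.0185, 0.0185 and 0.035 by the exact permutation test). The last, Col27a1 to Col2a1, no longer passed without any 1 of Vehicle replicates 1, 2, 4 and 5 or GW3965 replicates 2 to 5 (adjusted p from 0.056 to 0.063 by the exact permutation test).

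Col2a1 relative to Col1a1, the fibrillar collagen of bone and fibrous tissue, was 1.02 ± 0.0752 with GW3965, 0.804 ± 0.0524 with 25HC, 0.804 ± 0.128 with 25HC3S and 0.642 ± 0.162 in Vehicle (SD, n = 5 each). GW3965 was above each of the other groups without overlap (adjusted p = 0.0185 by the exact permutation test for each). Without the 4 libraries the ratio was 0.800 ± 0.0155 in Vehicle (n = 2) and 0.857 ± 0.0527 with 25HC3S (n = 4). Vehicle was then close to 25HC. The log2 difference of the ratio between GW3965 and Vehicle was 0.70 with all libraries and 0.35 without the 4. Col1a1 itself was at 2877 FPKM ± 208 with GW3965 and 3007 ± 1325 in Vehicle. Its log2 differences from Vehicle were 0.02 for 25HC, -0.18 for 25HC3S and 0.02 for GW3965, and it was not called in any of the 6 comparisons with all libraries. Between the treated groups they were -0.20 for 25HC3S against 25HC, -0.0027 for 25HC against GW3965 and -0.20 for 25HC3S against GW3965. Leaving out the 4 libraries, Col1a1 was called lower in 25HC3S than in 25HC (-0.21 ± 0.06, adjusted p = 0.034) and GW3965 (-0.21 ± 0.06, adjusted p = 0.015).

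**Figure D4:**
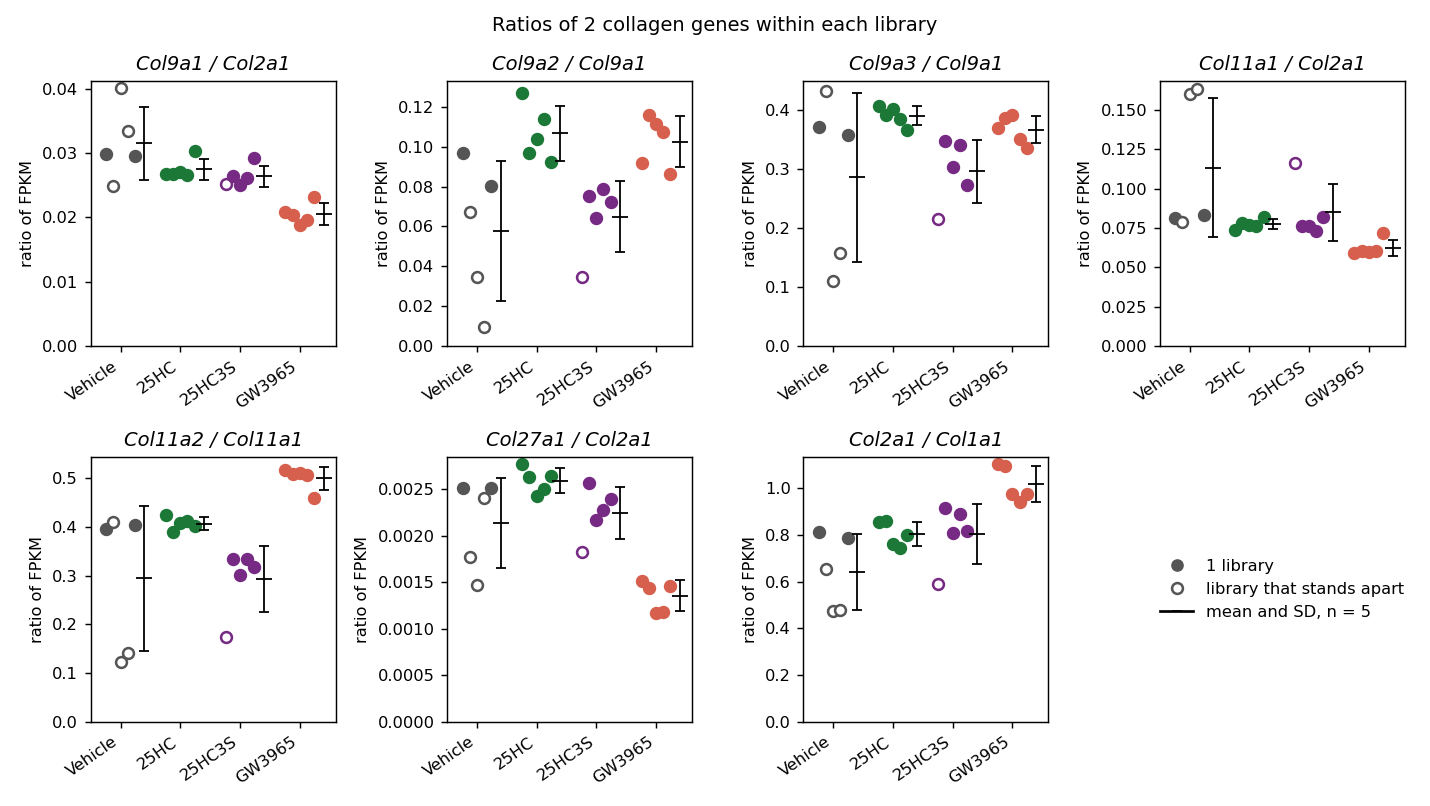
Ratio of the FPKM of 2 genes (y axis, from 0) in each of 20 libraries by group (x axis), with the mean and SD of 5 libraries. Open circles are the 4 libraries that stand apart. For Col11a2 to Col11a1 the GW3965, 25HC and 25HC3S libraries form 3 levels without overlap, and for Col27a1 to Col2a1 the GW3965 libraries lie below those of both oxysterols.

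How the 7 genes varied together depended on the libraries that stand apart. Over 20 libraries, Pearson's r of log2(FPKM + 1) between Col2a1 and Col11a2 was 0.97, and over the 16 others 0.87. Between Col9a2 and Col9a3 it was 0.92 and 0.89. For Col2a1 with Col27a1 it was 0.64 over 20 and -0.37 over 16, so the sign turned without the 4 libraries. For Col11a1 with Col11a2 it was 0.45 over 20 and 0.80 over 16. These describe libraries that share depth, treatment and culture, and no test was made. Among all other tested genes, those most like Col2a1 over 20 libraries were Pbxip1 (r = 0.97), Pgrmc2 (0.97), Maea (0.97), Ndrg1 (0.96) and Slc4a2 (0.96). Over the 16 libraries r was 0.92, 0.90, 0.91, 0.84 and 0.84 for the same genes.

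The machinery around the collagens changed at few genes with all libraries. Of 16 tested transcription regulators of cartilage collagens and 9 collagen receptors, limma called none in any comparison with all 20 libraries. At an unadjusted p of 0.05 the regulators gave 7 genes for 25HC, 4 for 25HC3S and 5 for GW3965 against Vehicle and 1 in each other comparison, and the receptors between 0 and 5. Leaving out the 4 libraries, 1 to 3 regulators were called in each of 3 comparisons. Scx was lower in 25HC3S than in Vehicle (-0.32), where 3.95% of all genes were called. Arid5b was higher in 25HC3S than in 25HC (0.21), against 7.18% of all genes. Scx (-0.26), Wwp2 (-0.15) and Foxc1 (-0.12) were lower in 25HC3S than in GW3965, against 17.9%. Of the receptors, Ddr2, a collagen receptor kinase, was then higher with GW3965 than in Vehicle (0.19), 25HC (a difference of -0.21 for 25HC against GW3965) and 25HC3S (-0.12). Mrc2 was higher in 25HC than in GW3965 (0.14) and Itga1 in 25HC3S than in GW3965 (0.19). Sox9 was 21.2 FPKM ± 2.41 in Vehicle, 24.4 ± 2.17 with 25HC, 22.5 ± 1.57 with 25HC3S and 21.9 ± 1.16 with GW3965 (SD, n = 5 each). Its log2 differences from Vehicle were 0.20, 0.09 and 0.05. Between the treated groups they were -0.11 for 25HC3S against 25HC, 0.15 for 25HC against GW3965 and 0.03 for 25HC3S against GW3965, and Sox9 was not called without the 4 libraries either. With all libraries Sox9 had an unadjusted p under 0.05 only for 25HC against Vehicle (adjusted p = 0.15).

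For folding and crosslinking, the list median for GW3965 against Vehicle was 0.19, against 0.02 over all genes. In that comparison 6.46% of all genes were called, and of 23 tested genes of the list 2 rose and none fell. They were Serpinh1, the collagen chaperone HSP47, from 679 to 949 FPKM (log2 difference 0.53 ± 0.15, adjusted p = 0.045), and Loxl4, a lysyl oxidase, from 62.2 to 80.4 FPKM (0.36 ± 0.06, adjusted p = 0.00043). No gene of that list was called by limma in the other 5 comparisons, where 0 to 14 had an unadjusted p under 0.05. Without the 4 libraries, 4 rose and 1 fell with GW3965 against Vehicle, P4ha3, a prolyl hydroxylase chain, being the one that fell (-0.25). Then 3 rose with 25HC3S against Vehicle and 1 was higher in 25HC3S than in 25HC. In 25HC against GW3965, 4 were higher and 3 lower, and in 25HC3S against GW3965, 4 higher and 2 lower. Over all genes, 7.77%, 3.95%, 7.18%, 13.1% and 17.9% were called in the same order. Lox, a lysyl oxidase, was called in all but the last, with differences of 0.21, 0.17, 0.12 and -0.16. Without the 4 libraries the difference of Serpinh1 for GW3965 against Vehicle was 0.14 (adjusted p = 0.041). Of 15 secretion and processing genes, Adamts2, which removes the amino propeptide of procollagens, rose with GW3965 by 0.33 (0.18 without the 4 libraries) and Pcsk6, a proprotein convertase, by 0.27, while Pcolce2, an enhancer of carboxy propeptide removal, fell by 0.36. Pcsk6 rose with 25HC3S as well (0.25), 1 of 15 against 1.61% of all genes. Pcolce2 was higher in 25HC than in GW3965 (0.33), 1 of 15 against 1.74%. In 25HC3S against GW3965, Adamts2 was lower (-0.39) and Adamts3, which acts on procollagen II, higher (0.33), 2 of 15 against 4.63%. Adamts2 was also called lower in 25HC3S without the 4 libraries, by -0.20 against Vehicle and -0.21 against 25HC. In all, that setting gave 2 of 15 calls for 25HC3S and 5 for GW3965 against Vehicle, 1 for 25HC3S against 25HC, 5 for 25HC against GW3965 and 3 for 25HC3S against GW3965. Over all genes, 3.95%, 7.77%, 7.18%, 13.1% and 17.9% were called there.

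Among 22 fibril partners, Fmod, a small proteoglycan that binds fibrils, rose with GW3965 against Vehicle from 666 to 960 FPKM (log2 difference 0.59 ± 0.17, adjusted p = 0.039). Epyc, another small proteoglycan, fell with GW3965 by 0.56 and with 25HC3S by 0.51. Cilp (-0.55) and Lum (-0.28) were lower in 25HC3S than in 25HC, 2 of 22 against 0.816% of all genes. The list median was -0.23, against 0.00 over all genes. Acan was 72.7 FPKM ± 8.20 in Vehicle, 83.1 ± 2.87 with 25HC, 65.7 ± 7.02 with 25HC3S and 65.9 ± 6.72 with GW3965 (SD, n = 5 each). It was not called with all libraries, with differences of 0.20, -0.14 and -0.14 from Vehicle, -0.34 for 25HC3S against 25HC (adjusted p = 0.083), 0.33 for 25HC against GW3965 (adjusted p = 0.060) and -0.01 for 25HC3S against GW3965. Leaving out the 4 libraries, Acan was called lower in 25HC3S than in 25HC (-0.38 ± 0.07, adjusted p = 0.0027) and higher in 25HC than in GW3965 (0.33 ± 0.06, adjusted p = 0.0024). In those comparisons 8 of 22 fibril partners were lower in 25HC3S than in 25HC, and 9 of 22 were higher in 25HC than in GW3965, with none the other way. Over all genes, 7.18% and 13.1% were called there. Snorc (-0.56), Cilp (-0.53) and Matn1 (-0.40) led the first, and Snorc (0.57), Matn3 (0.47) and Matn4 (0.46) the second.

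Of 11 tested proteases that cut cartilage collagens, Mmp3, stromelysin 1, fell with GW3965 from 15.3 to 6.54 FPKM (log2 difference -1.07 ± 0.19, adjusted p = 0.0021), and Ctsb, cathepsin B, rose from 203 to 290 FPKM (0.58 ± 0.17, adjusted p = 0.043). Mmp3 was also higher in both oxysterols than in GW3965, by 0.78 with 25HC and 0.89 with 25HC3S. Mmp13, the main collagenase of collagen II, was higher in 25HC3S than in GW3965 (0.37), and Ctsb lower (-0.60). When the 4 libraries were left out, 4 of 11 proteases were lower in 25HC3S than in 25HC, led by Ctsb (-0.36), and 5 were higher and 1 lower in 25HC than in GW3965. Over all genes, 7.18% and 13.1% were called there. Other collagens showed few calls with all 20 libraries. Of 7 other fibrillar collagens, Col24a1 fell with 25HC3S (-0.40) and GW3965 (-0.49). Of 11 other FACIT and network collagens, Col8a1 fell with 25HC3S (-0.37) and GW3965 (-0.30), and Col14a1, which binds fibril surfaces, with GW3965 (-0.49). Vehicle holds 3 of the 4 libraries that stand apart. Without these 4, Fmod, Ctsb and Col8a1 were no longer called for GW3965 against Vehicle, Col24a1 no longer for 25HC3S, and Epyc for neither. Col3a1, a fibrillar collagen of soft tissue, was then called lower in 25HC3S than in Vehicle (-0.49, adjusted p = 1.3e-05), 25HC (-0.50, adjusted p = 2.0e-07) and GW3965 (-0.38, adjusted p = 4.3e-07). In 25HC3S against 25HC, Col1a1, Col6a3 (-0.26) and Col6a2 (-0.22) were lower as well. In 25HC against GW3965, Col14a1 (0.34), Col16a1 (0.31), Col6a2 (0.24) and Col12a1 (0.20) were higher, 4 of 11 against 13.1% of all genes. In 25HC3S against GW3965, Col5a2 (-0.14) was lower and Col8a2 (0.28) and Col16a1 (0.20) higher.

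Markers of other cells were present at unequal levels. Cd68, a macrophage gene, ran from 16.2 to 81.4 FPKM over the 20 libraries and Lyz2 from 121 to 531 FPKM. Of the osteoblast and osteocyte list, Spp1 ran from 611 to 1001 FPKM and Ibsp from 61.7 to 99.1 FPKM, while the osteocyte genes Sost and Mepe stayed at or under 0.0766 and 0.119 FPKM, with 0 as the lowest. The 11 genes of that list summed to 794 to 1151 FPKM in Vehicle, 1057 to 1166 in 25HC, 764 to 1085 in 25HC3S and 937 to 979 in GW3965. The 11 synovial and tendon genes summed to 199 to 318, 282 to 337, 293 to 320 and 274 to 302 FPKM in the same order, with Prg4, lubricin, between 82.4 and 187 FPKM. With all 20 libraries no gene of these 2 lists was called by limma, and between 0 and 5 of each had an unadjusted p under 0.05. Leaving out the 4 libraries, Pdpn, a synovial lining gene, was higher in 25HC3S than in 25HC (0.34) and Ibsp lower (-0.27). Spp1 (0.22), Ibsp (0.16) and Alpl (0.16) were then higher in 25HC than in GW3965, and Pdpn lower (-0.15). In 25HC3S against GW3965, Tnmd (-0.60) and Scx (-0.26), tendon genes, were lower and Pdpn (0.19), Bglap (0.43) and Spp1 (0.15) higher. Against Vehicle, Scx was lower (-0.32) and Pdpn higher (0.32) with 25HC3S, and Spp1 lower with GW3965 (-0.26). The 8 endothelial genes summed to at most 9.99 FPKM and the 9 skeletal muscle genes to at most 11.7 FPKM, with Ckm, Myh2 and Myh4 at 0 in some libraries. Of the muscle genes Acta1 was lower in 25HC3S than in GW3965 (-0.83), and no endothelial gene was called by limma, with at most 2 under an unadjusted p of 0.05. Macrophage genes called against Vehicle were Mrc1 (-1.80), Fcgr1 (-0.84), Adgre1 (-0.83) and Cd14 (0.75) with 25HC3S, and Mrc1 (-0.89) and Adgre1 (-0.32) with GW3965. Without the 4 libraries 7 of 13 were lower and 1 higher with 25HC3S, where 3.95% of all genes were called. With GW3965 Mrc1 alone was then called (-0.72), against 7.77% of all genes. Mrc1 was also higher in 25HC than in GW3965 (0.61). The part of any of these in the collagen values was not tested.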

How the data were processed

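RNA was sequenced from 20 libraries of mouse articular chondrocytes. The authors deposited 1 table of FPKM values per gene, made with CASAVA 1.8 and HISAT2 2.0.5 among the tools, per the submitters' processing notes. The sources used here give neither a counting tool with its strand setting nor a build, but gene coordinates in the table match GENCODE M21 on GRCm38. Whole fragments followed from the steps between FPKM values (tolerance 0.02) and gave 14653777 to 19365220 fragments per library. They are not independent molecules, and low genes rest on few of them.

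Genes with at least 1 FPKM in at least 5 libraries were kept, 12752 of 54532. Differences were fitted on log2(FPKM + 1), which understates the change of low genes, with limma 3.58.1 in R 4.3.3. The fit had 1 mean per group over all 20 libraries and an intensity trend in the spread. P-values were adjusted by Benjamini-Hochberg over all genes tested in a comparison, and genes under 0.05 are called. Ratios within a library were tested by exact two-sided permutation of libraries (SciPy 1.17.1, Python 3.11.15) and adjusted over 42 tests. Each step across genes was tested on simulated data.

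All 7 members are named. Of each other list, genes called in a comparison with all 20 libraries are named, mostly the 3 with the largest difference. Some genes called only without the 4 libraries are counted and not named. Acan, Sox9 and Col1a1 are always given, Abca1 once, and the 5 genes most correlated with Col2a1. The members and lists were chosen with earlier results of these data known. Alternatives were another pseudocount, filter or scaling, library weights, a replicate block, fits of 2 groups only and leaving out each library. Leaving out the 4 libraries with under 1500 genes at exactly 1 fragment was chosen after seeing the data. Promoter windows come from RefSeq on GRCm38.p6, where 5 of the 7 genes were matched.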

Additional observations from a re-analysis of the deposited data

Results flagged for a closer look

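In 7 of 56 sets of 5 libraries, 1 per measure and group, a single library lay far from the other 4, by a gap that chance gives in about 1 set in 20 (Dixon's test at 95%). For Col9a1, 25HC replicate 3 was low at 57.5 FPKM. For Col11a1, Vehicle replicate 2 was high at 275 FPKM. The ratio of Col9a1 to Col2a1 was high in 25HC replicate 5, at 0.0303. The ratio of Col11a1 to Col2a1 was high in 25HC3S replicate 1, at 0.116, and in GW3965 replicate 5, at 0.0717. The ratio of Col11a2 to Col11a1 was low in the same 2 libraries, at 0.174 and 0.458. Vehicle replicate 2 and 25HC3S replicate 1 are among the 4 libraries that stand apart, and the other 3 libraries named are not.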

How the results depend on the processing

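The direction of most differences held, and which were called depended on the libraries that stand apart. Members called, 0 in all 6 comparisons with all libraries, were 1 for 25HC3S and 2 for GW3965 against Vehicle, 3 for 25HC3S against 25HC and 3 for 25HC against GW3965, both without the 4 libraries and with library weights. For 25HC3S against GW3965 they were 5 and 4. Fits of 2 groups only gave 3 for 25HC against GW3965 and 2 for 25HC3S against GW3965, and without the 4 libraries 2 for GW3965 against Vehicle and 3 in each comparison of treated groups. The shares of all genes called are not given for the fits with weights. They are also not given for fits of 2 groups that left out any of the 4 libraries. Those counts cannot be set against all genes here. Leaving out 1 library gave 0 to 1 for 25HC and 0 to 3 for GW3965 against Vehicle. Differences that changed sign follow, first with weights and then without the 4 libraries, the second also in the fit of 2 groups. Against Vehicle, 25HC gave 0.0287 and 0.0617 for Col11a1. For 25HC3S, values were -0.30 and -0.33 for Col9a2, -0.31 and -0.32 for Col9a3, and -0.0490 and -0.0506 for Col27a1. For GW3965 they were -0.0343 and -0.0409 for Col9a1, 0.0633 and 0.0854 for Col11a1, -0.30 and -0.33 for Col27a1 (and -0.0070 with quantile normalization), and for Col9a3 -0.0347 without the 4 libraries. Leaving out 1 library at a time, the difference for 25HC against Vehicle ran from -0.12 to 0.0489 for Col11a1. For 25HC3S it ran from -0.0211 to 0.41 for Col2a1, -0.23 to 0.0842 for Col9a1, -0.24 to 0.37 for Col9a2, -0.26 to 0.44 for Col9a3, -0.35 to 0.25 for Col11a2 and -0.0462 to 0.33 for Col27a1. For GW3965 it ran from -0.0348 to 0.27 for Col9a1, -0.10 to 0.0726 for Col11a1 and -0.19 to 0.18 for Col27a1. For 25HC against GW3965 it ran from -0.0464 to 0.0049 for Col11a1. The cause was not tested. Of 42 ratio tests, 21 passed, 14 without the 4 libraries and 18 to 22 leaving out 1. The replicate block called 0 members in each comparison. Same-numbered libraries of different groups had correlations from -0.70 to 0.27, of which 4 of 30 were over 0.1. No label says what a number marks. With 5 libraries per group and 4 that stand apart, these correlations cannot decide whether numbers pair libraries. Col9a2 was not tested under the stricter filter. Few fragments, down to 17, limit Col9a2.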
